A study of Mus musculus with 28 samples.

Results

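The genes described here carry the signal of the insulin and IGF-1 receptors from the cell surface to glucose uptake. They are Insr and Igf1r, the receptors of insulin and of insulin-like growth factor 1, Irs1 and Irs2, Pik3r1 and Pik3ca, Akt1 and Akt2, and Slc2a4. Each was taken by its symbol from the deposited table of raw gene counts, which gave 9 of 45513 rows. All 9 were among the 24273 genes with enough counts to be tested. The libraries are ventricular myocardium of 28 male C57BL/6 mice, 1 library per mouse, and the groups cross a kidney operation with an oral gavage. Chronic kidney disease (CKD) was induced at 6 weeks of age by 5/6 nephrectomy, and controls had a sham operation. On day 7, mice were gavaged with Oxalobacter formigenes (Oxf), a gut bacterium that degrades oxalate, or with its culture medium (vehicle). All groups ate a diet with 1% hydroxyproline and 0.5% calcium. The groups were sham-vehicle (10 mice, numbers 901 to 910), CKD-vehicle (6 mice, 913 to 920), sham-Oxf (5 mice, 921 to 929) and CKD-Oxf (7 mice, 931 to 940). The design text names 10 mice in each group, and the other mice were not analysed here.

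Insulin and IGF-1 bind related receptor tyrosine kinases, which phosphorylate the docking proteins IRS1 and IRS2. These recruit phosphoinositide 3-kinase, whose regulatory subunit p85 alpha is made by Pik3r1 and whose catalytic subunit p110 alpha is made by Pik3ca. The lipid it makes brings AKT to the membrane, and AKT moves the insulin-responsive glucose transporter GLUT4, made by Slc2a4, to the surface of muscle and fat cells. In heart muscle the pathway is known for control of glucose uptake and of physiological growth. Its activity is set largely by phosphorylation and by protein movement, neither of which mRNA counts measure.

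RefSeq promoters (build GRCm38.p6) were found for 7 of the 9 genes, with more than 1 window each for Akt1, Akt2 and Pik3r1. Insr and Slc2a4 were not in the table used. The 250 bases before each start were searched on both strands for the E-box CACGTG, which clock and MYC factors bind, the FOXO core GTAAACA, the insulin response element CAAAACAA, the D-box TTATGTAA and the cAMP response element TGACGTCA. Only the promoters of Irs1, Irs2 and Akt1 held a match. The Irs1 and Irs2 promoters are printed because the pair of docking proteins shared the same 2 motifs, and that of Pik3r1 because its level moved with the clock genes described further on. All 3 are written 5′ to 3′ on the minus strand, the strand of the gene, and capitals mark the matched motifs. Irs1 is at chr1:82291440-82291689, Irs2 at chr8:11008930-11009179 and Pik3r1 at chr13:101768218-101768467.
Irs1: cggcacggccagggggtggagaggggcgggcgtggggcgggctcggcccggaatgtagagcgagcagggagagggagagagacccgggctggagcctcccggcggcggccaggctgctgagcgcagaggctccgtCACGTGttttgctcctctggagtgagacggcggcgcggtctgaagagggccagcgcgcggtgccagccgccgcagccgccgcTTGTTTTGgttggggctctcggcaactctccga
Irs2: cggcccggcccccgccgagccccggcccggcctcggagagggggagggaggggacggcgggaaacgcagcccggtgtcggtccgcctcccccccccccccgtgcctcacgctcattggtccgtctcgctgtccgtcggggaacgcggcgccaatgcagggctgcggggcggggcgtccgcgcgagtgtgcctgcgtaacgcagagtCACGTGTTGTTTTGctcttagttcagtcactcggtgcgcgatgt
Pik3r1: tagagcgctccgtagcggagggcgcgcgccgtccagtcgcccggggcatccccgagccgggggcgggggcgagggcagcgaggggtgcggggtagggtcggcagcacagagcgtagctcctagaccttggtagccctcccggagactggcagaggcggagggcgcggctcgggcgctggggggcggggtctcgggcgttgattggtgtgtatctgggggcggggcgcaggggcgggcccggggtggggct
Positions count from the RefSeq start, which can differ from the gene end in other annotation. In Irs1 the E-box lay at -115 to -110 and the insulin response element, read in reverse, at -33 to -26. In Irs2 they lay side by side without overlap, at -44 to -39 and -38 to -31. The 1 match in Akt1 was the FOXO core at -161 to -155 of the window at chr12:112674885-112675134. The printed Pik3r1 window held none of the 5 motifs, and neither did its other window, at chr13:101692631-101692880. Among all 32851 promoters of the same length, 6.02% held the E-box, 2.21% the insulin response element, 3.17% the FOXO core, 1.55% the cAMP response element and 0.819% the D-box. None of these motifs contains another. These matches describe letters in a window and not bound sites.

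Depth was between 19.8 M and 65.4 M counts per library (M, 1e6 counts), with a median of 38.1 M. The libraries of sham-Oxf replicate 1, which is also the shallowest at 19.8 M, and of CKD-Oxf replicate 4 stood apart, with 15879 and 27128 genes detected against 28800 to 33995 in the others, and values that moved by over 1.5 times without either are also given without it. Between 1.83% and 20.98% of counts came from the rows of 7SL RNA, part of the signal recognition particle, which are Rn7s1 and Rn7s2. Both rows had the same lowest count (291953) and the same lowest and highest CPM. The same reads may thus be counted in both, in which case this share is too high as a share of RNA. Group medians of this share were 10.09% (sham-vehicle), 14.04% (CKD-vehicle), 2.70% (sham-Oxf) and 7.73% (CKD-Oxf). A clock score was the mean log2 level of 1 list of clock genes (such as Dbp and Per2) less that of a second list (such as Arntl). Its group means were 0 (sham-vehicle, the reference), -1.44 (CKD-vehicle), 1.59 (sham-Oxf) and 0.998 (CKD-Oxf). Cardiomyocyte markers were high in every library, with a summed level of 45650 to 93680 CPM (counts scaled to 1e6 per library). Atrial markers ranged from 62.2 to 2523 CPM and adipocyte markers from 0.0474 to 428 CPM, with Adipoq, Plin1 and Cidec at 0 in 1 library and Lep at 0 in 4. Each group has its own run of mouse numbers, so between groups the number and the group cannot be told apart. In whole tissue, fewer cells of a type and less RNA per cell cannot be told apart either.

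All 9 genes were detected in every library, with counts between 375 (Irs2, sham-Oxf replicate 1) and 12245 (Insr, CKD-Oxf replicate 1). To compare genes, CPM scaled by trimmed-mean (TMM) factors was divided by the length of all annotated exons in kb. On that scale Akt1 had a mean level of 22.5 (range over libraries 16.4 to 36.6) and Slc2a4 22.1 (12.9 to 41.3). They were followed by Insr at 15.9 (12.2 to 20.4), Pik3r1 at 13.6 (8.55 to 18.1) and Akt2 at 10.4 (7.89 to 14.5). A lower tier held Pik3ca at 5.40 (3.52 to 6.36), Irs1 at 4.85 (2.07 to 6.82), Igf1r at 4.53 (3.03 to 5.70) and Irs2 at 3.71 (2.14 to 6.88). Neighbours in this order overlapped in range throughout, except that every value of Akt2 was above every value of Pik3ca. Per length, the Insr mRNA was thus above that of Igf1r in all libraries, and that of Akt1 above that of Akt2, with no overlap of ranges in either pair. Exon lengths count every annotated isoform, so a gene expressed from short isoforms reads too low on this scale.

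**Figure D1:**
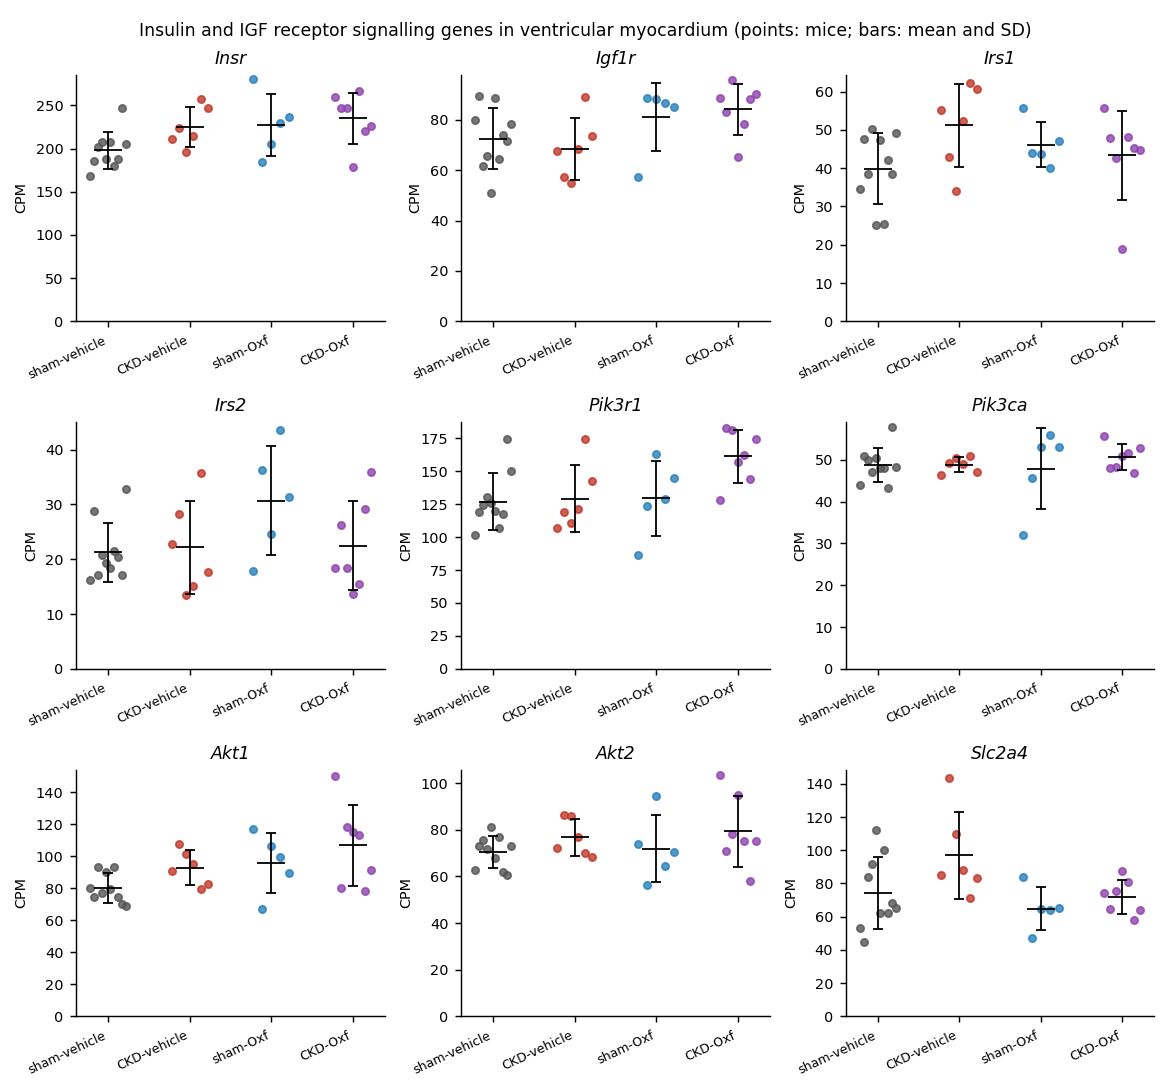
Level of each gene in CPM (linear axis from 0) in the 4 groups, where each point is 1 mouse and the bars are mean and SD. All groups overlap for all 9 genes. Pik3r1 is highest in CKD-Oxf (mean 161.4 CPM), Slc2a4 in CKD-vehicle (mean 97.0 CPM), and the lowest Irs1 point (18.9 CPM) is CKD-Oxf replicate 4.

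None of the 9 genes passed the test in any comparison of groups (edgeR quasi-likelihood test, Benjamini-Hochberg adjusted p under 0.05 over all 24273 genes). The same held for all 28 fits that left out 1 library each. Few genes of any kind passed, so the counts of unadjusted p-values under 0.05 are given beside those of all genes tested. Levels below are CPM, and differences are log2 fold changes ± standard error.

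For CKD without the bacterium, CKD-vehicle was set against sham-vehicle. Here 0.00824% of all genes passed, and 2 of the 9 genes had an unadjusted p under 0.05, against 4.46% of all genes. The difference was positive for 8 of the 9, with a median of 0.12 against -0.03 over all genes. The 2 genes were the docking protein Irs1 and the transporter Slc2a4.

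Slc2a4, the GLUT4 gene, had a lowest, median and highest level of 44.9, 66.7 and 112.2 CPM in sham-vehicle. In CKD-vehicle these were 71.3, 86.7 and 143.6 CPM. All 6 CKD-vehicle mice lay above the sham-vehicle median, but the groups overlapped. The difference was 0.38 ± 0.17 (edgeR p = 0.0320, adjusted p = 0.955), and without CKD-vehicle replicate 2, the mouse with the highest value, it was 0.21. Adipocytes also express Slc2a4. In sham-vehicle the summed adipocyte markers ran from 4.23 to 428 CPM (median 81.1 CPM). In CKD-vehicle they ran from 2.83 to 196 CPM (median 14.6 CPM). Skeletal muscle, another tissue that expresses the gene, had median marker sums of 9.31 CPM (sham-vehicle) and 11.1 CPM (CKD-vehicle). The sums reached 362 CPM in sham-vehicle replicate 6 and 561 CPM in CKD-vehicle replicate 1. CKD-vehicle replicate 2 had 12.4 CPM of adipocyte and 14.2 CPM of skeletal muscle markers. Their part in the Slc2a4 values was not tested.

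Irs1 ran from 25.2 to 50.2 CPM in sham-vehicle, with a median of 40.4 CPM. In CKD-vehicle it ran from 34.2 to 62.3 CPM, with a median of 53.7 CPM. In CKD-vehicle, 5 of 6 mice lay above the sham-vehicle median. The difference was 0.36 ± 0.18 (edgeR p = 0.0483, adjusted p = 0.955). Insr, the insulin receptor, had means of 197.9 ± 21.6 CPM (SD, n = 10) and 224.7 ± 23.2 CPM (SD, n = 6) in these groups. Its difference was 0.18 ± 0.10 (edgeR p = 0.0890, adjusted p = 0.955). The catalytic subunit Pik3ca was the most even of the genes, at 48.8 ± 4.05 CPM and 48.8 ± 1.77 CPM, and the 95% interval of its difference ran from -0.19 to 0.19. The corresponding interval for Irs2 was -0.40 to 0.52, the widest of the 9.

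Oxf in mice with CKD was tested as CKD-Oxf against CKD-vehicle, where 0.033% of all genes passed. Of the 9 genes, 3 had an unadjusted p under 0.05, against 13.1% of all genes. They were Pik3r1 and Igf1r, with higher means in CKD-Oxf, and Slc2a4, with a lower one.

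Pik3r1, which encodes the p85 alpha regulatory subunit, had a lowest, median and highest level of 106.7, 120.4 and 174.3 CPM in CKD-vehicle and of 128.3, 162.4 and 182.6 CPM in CKD-Oxf. All 7 CKD-Oxf mice lay above the CKD-vehicle median, and 2 of the 6 CKD-vehicle mice, at 142.5 and 174.3 CPM, lay within the CKD-Oxf range. The difference was 0.32 ± 0.14 (edgeR p = 0.0328, adjusted p = 0.342). With the clock score as a covariate it was -0.18, the opposite sign. The score ran from -2.48 to -0.19 in CKD-vehicle and from -0.08 to 1.61 in CKD-Oxf. These ranges do not overlap, so no mice of the 2 groups were compared at a shared score.

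Igf1r, the IGF-1 receptor, ran from 54.7 to 88.9 CPM in CKD-vehicle (median 68.1 CPM) and from 65.0 to 95.7 CPM in CKD-Oxf (median 88.3 CPM). In CKD-Oxf, 6 of 7 mice lay above the CKD-vehicle median, and the lowest was replicate 4. The difference was 0.30 ± 0.14 (edgeR p = 0.0355, adjusted p = 0.349).

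Slc2a4 stood at 58.2 to 87.2 CPM in CKD-Oxf, with a median of 74.3 CPM, against the 71.3 to 143.6 CPM of CKD-vehicle given above. A single CKD-Oxf mouse of 7 lay above the CKD-vehicle median. The difference was -0.43 ± 0.18 (edgeR p = 0.0275, adjusted p = 0.332), and -0.29 without CKD-vehicle replicate 2. Under limma voom with sample weights, Pik3r1 (0.45, adjusted p = 0.0135) and Igf1r (0.35, adjusted p = 0.0222) passed in this comparison and Slc2a4 did not. That test called 3620 of all genes here, against 8 with edgeR.

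Oxf in sham-operated mice was tested as sham-Oxf against sham-vehicle, where 0.0% of all genes passed (edgeR; 12.6% had an unadjusted p under 0.05, and DESeq2 called 131 genes). The 1 gene of the 9 with an unadjusted p under 0.05 was Irs2, the docking protein that acts beside IRS1. Irs2 was measured at 17.8, 36.2, 24.5, 43.5 and 31.4 CPM in the 5 sham-Oxf mice. In sham-vehicle its lowest, median and highest levels were 16.3, 19.9 and 32.8 CPM. In sham-Oxf, 4 of 5 mice lay above the sham-vehicle median and replicate 1 was below it. The difference was 0.53 ± 0.23 (edgeR p = 0.0298, adjusted p = 0.338), and 0.67 without sham-Oxf replicate 1. Over the 28 fits without 1 library it was 0.37 to 0.67. Akt1, the more widely expressed of the AKT kinases, was measured at 116.7, 67.3, 106.1, 99.2 and 89.5 CPM in sham-Oxf, against 68.7 to 93.5 CPM in sham-vehicle. Its highest sham-Oxf value was in replicate 1, the shallow library. The difference of Akt1 was 0.26 ± 0.14 (edgeR p = 0.0677, adjusted p = 0.427), and 0.18 to 0.36 over the 28 fits without 1 library.

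CKD in the presence of Oxf was tested as CKD-Oxf against sham-Oxf, where 0.0% of all genes passed (edgeR; 8.23% had an unadjusted p under 0.05, and DESeq2 called 100 genes). Pik3r1 was the 1 gene of the 9 with an unadjusted p under 0.05. It was measured at 86.2, 123.7, 162.9, 129.1 and 145.2 CPM in sham-Oxf, and 6 of 7 CKD-Oxf mice lay above the median of those. The difference was 0.32 ± 0.15 (edgeR p = 0.0439, adjusted p = 0.582), and 0.20 without sham-Oxf replicate 1, which held the lowest value. Irs2 had a lowest, median and highest level of 13.7, 18.4 and 36.0 CPM in CKD-Oxf, and 6 of these 7 mice lay below the sham-Oxf median of 31.4 CPM. Its difference was -0.45 ± 0.25 (edgeR p = 0.0830, adjusted p = 0.694), -0.59 without sham-Oxf replicate 1 and -0.29 without sham-Oxf replicate 4, the mouse with the highest value.

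The interaction, which asks whether the Oxf difference itself differed between CKD and sham mice, had an unadjusted p under 0.05 for 0 of the 9 genes, against 3.55% of all genes. Again 0.0% of all genes passed after adjustment, and no other tool called any of the 9. The values farthest from 0 among the 9 were -0.51 ± 0.34 for Irs2 (edgeR p = 0.138, adjusted p = 1.0) and -0.45 ± 0.27 for Irs1 (edgeR p = 0.102, adjusted p = 1.0). The Irs1 value includes CKD-Oxf replicate 4, where Irs1 stood at 18.9 CPM against 42.6 to 55.9 CPM in the other 6 mice of the group, and it was -0.30 without that library. Without CKD-vehicle replicate 5, the Irs2 value was -0.32.

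Averaged over surgery, Oxf against vehicle gave the most calls of the group comparisons, with 2.81% of all genes past the threshold and 0 of the 9. An unadjusted p under 0.05 was found for 3 of the 9, against 23.0% of all genes. The mean of Igf1r was 81.1 ± 13.4 CPM (SD, n = 5) in sham-Oxf and 84.2 ± 10.1 CPM (SD, n = 7) in CKD-Oxf. The vehicle groups had 72.5 ± 12.2 CPM (SD, n = 10) in sham and 68.5 ± 12.3 CPM (SD, n = 6) in CKD. The averaged difference was 0.23 ± 0.09 (edgeR p = 0.0206, adjusted p = 0.143). For Akt1 it was 0.23 ± 0.10 (edgeR p = 0.0250, adjusted p = 0.155), and for Slc2a4 -0.31 ± 0.13 (edgeR p = 0.0231, adjusted p = 0.150).

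Igf1r and Slc2a4 came past the threshold when the 2 libraries with the fewest genes detected were left out, at 0.31 (adjusted p = 0.0181) and -0.39 (adjusted p = 0.0446). With sample weights in limma voom, Igf1r (0.29, adjusted p = 0.00599), Pik3r1 (0.29, adjusted p = 0.0118) and Irs2 (0.41, adjusted p = 0.0420) did so. These 2 settings called 4707 and 5307 of all genes, against 681 with edgeR on all libraries. Averaged over gavage, CKD against sham passed for 0.0% of all genes (edgeR; 10.6% had an unadjusted p under 0.05, and DESeq2 called 113 genes). Slc2a4 was the 1 gene of the 9 with an unadjusted p under 0.05, at 0.27 ± 0.13 (edgeR p = 0.0486, adjusted p = 0.470), and 0.18 without CKD-vehicle replicate 2. The comparisons share groups, so their values are not independent of each other.

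**Figure D2:**
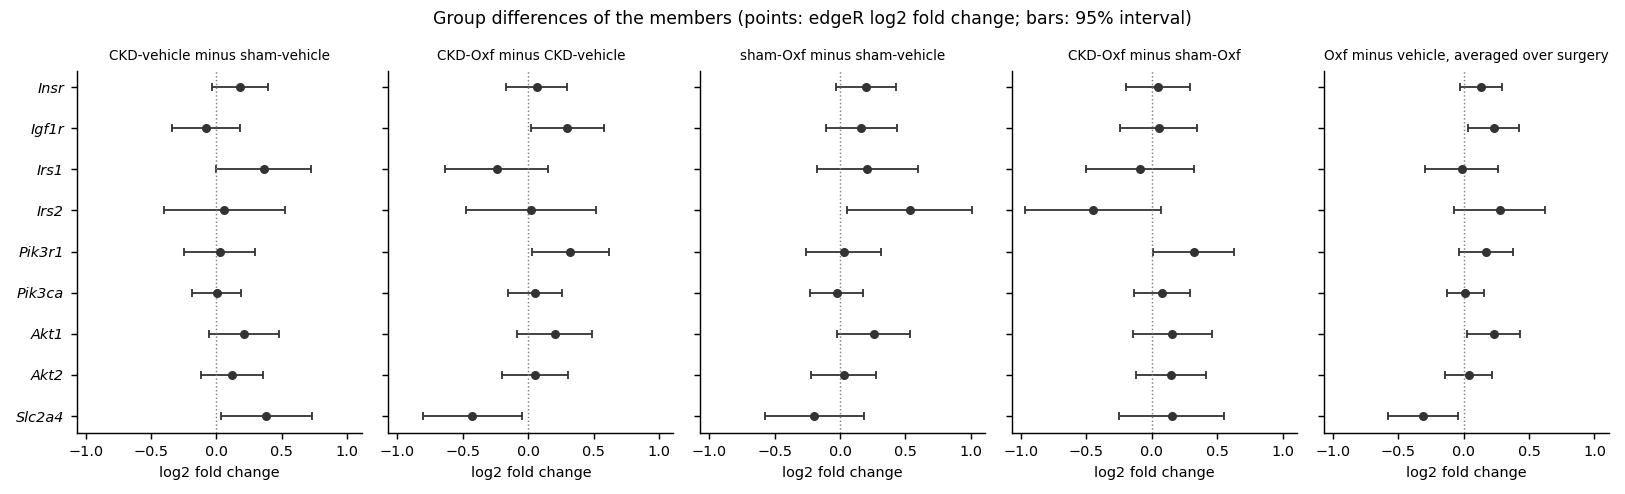
Log2 fold change of each gene (horizontal axis) with its 95% interval in 4 comparisons of groups and in the Oxf difference averaged over surgery, from the edgeR fit of all 28 libraries. The intervals use 24 residual degrees of freedom and not those of the edgeR test, so they can differ from its p-values. That of Irs1 in CKD-vehicle against sham-vehicle (edgeR p = 0.0483) ran from -0.0004 to 0.72. The intervals of Irs2 are the widest and the points of Pik3ca lie near 0, and Slc2a4 lies above 0 in CKD-vehicle (0.38) and below 0 in CKD-Oxf against CKD-vehicle (-0.43).

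Within groups, the level of each gene was set against mouse number, a label whose meaning (order of surgery, of sacrifice or of neither) is not given in the sources used here. A slope common to the 4 groups had an unadjusted p under 0.05 for 2 of the 9 genes, against 5.5% of all genes, and 0.0371% of all genes passed after adjustment. The 2 were Pik3r1, at 0.05 ± 0.02 log2 units per number (edgeR p = 0.00311, adjusted p = 0.603), and Akt1, at -0.03 ± 0.02 (edgeR p = 0.0488, adjusted p = 0.824). Irs2 followed at 0.05 ± 0.03 (edgeR p = 0.0693, adjusted p = 0.824). With the clock score as a covariate, the Akt1 slope changed sign, to 0.01, as did the Pik3r1 slopes in sham-vehicle (-0.06) and CKD-vehicle (-0.04) given next.

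In sham-vehicle, the group with the most mice, the Pik3r1 slope was 0.05 ± 0.02 (edgeR p = 0.0579, adjusted p = 1.0; 0.03 without replicate 9, mouse 909), and none of the 9 had an unadjusted p under 0.05, against 0.902% of all genes, of which 0.0124% passed. The Pik3r1 level ran from 101.3 CPM in mouse 901 to 174.7 CPM in mouse 909 and 150.2 CPM in mouse 910, while the 7 mice between them, 902 to 908, lay between 106.8 and 130.7 CPM. Pearson's r with mouse number was 0.615 (permutation p = 0.0542, adjusted p = 1.0) and Spearman's rho 0.479 (permutation p = 0.165, adjusted p = 1.0). Without the 2 mice farthest from the middle number r was 0.352, so the relation rested on them.

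In CKD-vehicle, Pik3r1 was measured at 106.7, 119.2, 110.9, 121.6, 174.3 and 142.5 CPM in order of mouse number, with r of 0.763 (exact permutation p = 0.0764, adjusted p = 0.687) and rho of 0.886 (exact permutation p = 0.0333, adjusted p = 0.615). The value of r was 0.744 without the 2 farthest mice. The CKD-vehicle slope of Pik3r1 was 0.07 ± 0.04 (edgeR p = 0.0476, adjusted p = 0.896; 0.05 without replicate 5, the highest value), the 1 of the 9 genes with an unadjusted p under 0.05 there, against 2.44% of all genes, of which 0.00412% passed. In CKD-Oxf no slope of the 9 had an unadjusted p under 0.05, against 4.88% of all genes, of which 0.0% passed. There the r of Pik3r1 was 0.258 (exact permutation p = 0.578, adjusted p = 0.988) and rho 0 (exact permutation p = 1.0, adjusted p = 1.0), while r was -0.921 without the 2 farthest mice, so no single direction described that group. No correlation was computed for the 5 sham-Oxf mice. Its slope for Pik3ca was 0.09 ± 0.03 (edgeR p = 0.00247, adjusted p = 0.0786), the 1 of the 9 with an unadjusted p under 0.05, against 19.9% of all genes, of which 1.42% passed. Pik3ca was measured there at 32.0, 45.5, 53.0, 55.9 and 53.1 CPM, with the lowest value in replicate 1, the shallow library. Without that library the slope was 0.04 (edgeR adjusted p = 0.999). It was 0.10 (adjusted p = 0.0193) without replicate 2 and 0.13 (adjusted p = 0.0423) without replicate 5, and passed in no other fit without 1 library. The test that the 4 slopes differ gave p = 0.0603 for Pik3ca (edgeR, adjusted p = 0.690), where 0.0% of all genes passed (7.43% had an unadjusted p under 0.05). Across the 3 groups with 6 or more mice, no correlation of the 9 genes with mouse number had an adjusted p under 0.05, and 0.0% of all genes did so (2.01%, 4.0% and 3.95% had an unadjusted p of r under 0.05 in sham-vehicle, CKD-vehicle and CKD-Oxf).

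**Figure D3:**
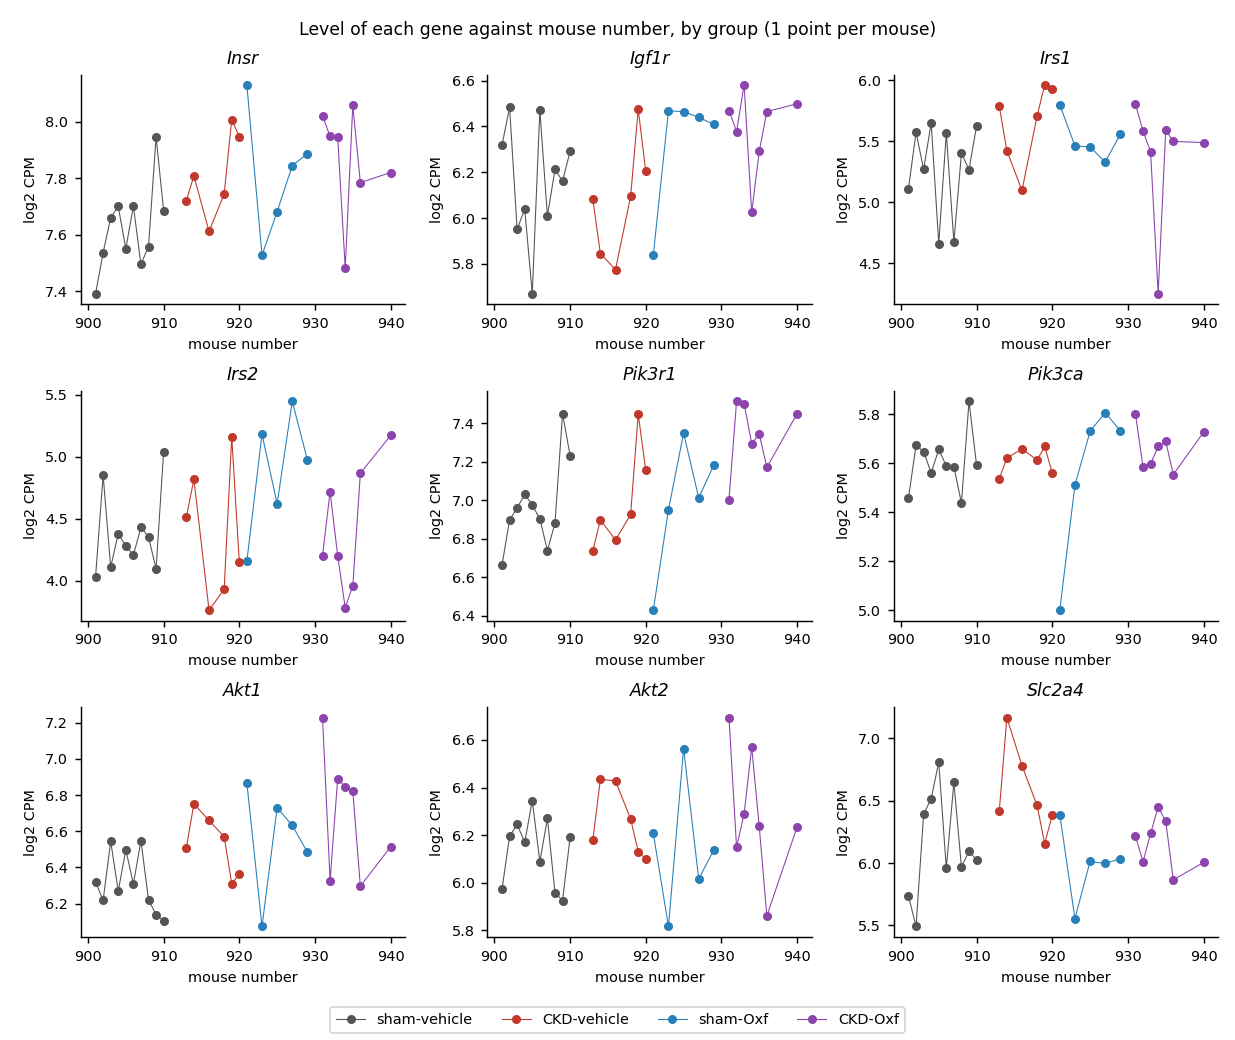
Log2 CPM of each gene (vertical axis) against mouse number (horizontal axis), 1 point per mouse, joined within each group. Pik3r1 is higher in the last mice of sham-vehicle and CKD-vehicle than in the first, and the lowest point of Pik3ca is the first mouse of sham-Oxf (32.0 CPM).

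Measures of the library itself moved with several of the 9 genes. Igf1r was lower in libraries with a larger 7SL share in each of the 3 groups. In sham-vehicle r was -0.956 (permutation p = 4e-05, adjusted p = 0.0138) and rho -0.927 (permutation p = 0.00031, adjusted p = 0.0311), and r was -0.892 without the 2 farthest libraries. The CKD-vehicle values were r of -0.956 (exact permutation p = 0.00694, adjusted p = 0.0628) and rho of -0.829 (exact permutation p = 0.0583, adjusted p = 0.178). Those of CKD-Oxf were r of -0.869 (exact permutation p = 0.0212, adjusted p = 0.249) and rho of -0.714 (exact permutation p = 0.0881, adjusted p = 0.651). Without the 2 farthest libraries r was -0.801 and -0.615 in these groups. In sham-vehicle, Igf1r was the 1 gene of the 9 past the adjusted threshold, where 16.1% of all genes passed by r and 6.46% by rho. In the other 2 groups 0.0% of all genes passed. An unadjusted p of r under 0.05 was found for 37.4%, 35.1% and 17.7% of all genes in the 3 groups. Irs1 and Irs2 also had negative r there, none with an adjusted p under 0.05. In the order sham-vehicle, CKD-vehicle, CKD-Oxf, Irs1 had -0.667 (permutation p = 0.0349), -0.848 (exact permutation p = 0.0292) and -0.763 (exact permutation p = 0.102). Irs2 had -0.427 (permutation p = 0.219), -0.662 (exact permutation p = 0.147) and -0.788 (exact permutation p = 0.0260). Without the 2 farthest libraries Irs1 had -0.378, -0.894 and 0.269, and Irs2 -0.757, 0.297 and -0.681.

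Slc2a4 ran the other way. Its r with the 7SL share was 0.772 in sham-vehicle (permutation p = 0.00878, adjusted p = 0.0521), with rho of 0.806 (permutation p = 0.00716, adjusted p = 0.0656). It was 0.820 in CKD-vehicle (exact permutation p = 0.0528, adjusted p = 0.145), with rho of 0.886 (exact permutation p = 0.0333, adjusted p = 0.147). In CKD-Oxf it was 0.810 (exact permutation p = 0.0214, adjusted p = 0.249), with rho of 0.750 (exact permutation p = 0.0663, adjusted p = 0.615). Without the 2 farthest libraries it was 0.715, 0.827 and 0.451. With the log2 7SL share as a covariate, the difference of CKD-Oxf from CKD-vehicle was 0.18 for Igf1r and -0.25 for Slc2a4, in place of 0.30 and -0.43. Akt1 and Akt2 had positive r in all 3 groups. For Akt1 r was 0.554 in sham-vehicle (permutation p = 0.0972, adjusted p = 0.206; 0.546 without the 2 farthest libraries), 0.892 in CKD-vehicle (exact permutation p = 0.0153, adjusted p = 0.0809; 0.873) and 0.350 in CKD-Oxf (exact permutation p = 0.446, adjusted p = 0.650; 0.0481). Its rho values were 0.394 (permutation p = 0.264, adjusted p = 0.428), 0.886 (exact permutation p = 0.0333, adjusted p = 0.147) and 0.286 (exact permutation p = 0.556, adjusted p = 0.849). The r of Akt2 was 0.357 (permutation p = 0.313, adjusted p = 0.453; -0.0283), 0.841 (exact permutation p = 0.0347, adjusted p = 0.118; 0.931) and 0.567 (exact permutation p = 0.183, adjusted p = 0.407; -0.0963) in the same order. Its rho values were 0.297 (permutation p = 0.407, adjusted p = 0.567), 0.771 (exact permutation p = 0.103, adjusted p = 0.238) and 0.429 (exact permutation p = 0.354, adjusted p = 0.771).

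The part of the 7SL share in the group differences of these genes was not tested beyond this covariate.

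The clock score moved with Pik3r1 and, in the opposite direction, with Akt1. For Pik3r1 r was 0.714 in sham-vehicle (permutation p = 0.0182, adjusted p = 1.0; 0.137 without the 2 farthest mice, on which it therefore rested) and rho 0.467 (permutation p = 0.178, adjusted p = 1.0). It was 0.869 in CKD-vehicle (exact permutation p = 0.00833, adjusted p = 0.351; 0.941 without the 2 farthest mice), with rho of 0.829 (exact permutation p = 0.0583, adjusted p = 0.319). In CKD-Oxf it was 0.551 (exact permutation p = 0.200, adjusted p = 0.727; 0.608 without the 2 farthest mice), with rho of 0.286 (exact permutation p = 0.556, adjusted p = 0.776).

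For Akt1 r with the clock score was -0.433 in sham-vehicle (permutation p = 0.213, adjusted p = 1.0), -0.820 in CKD-vehicle (exact permutation p = 0.0653, adjusted p = 0.351) and -0.879 in CKD-Oxf (exact permutation p = 0.00119, adjusted p = 0.182). The rho values were -0.382 (permutation p = 0.277, adjusted p = 1.0), -0.829 (exact permutation p = 0.0583, adjusted p = 0.319) and -0.929 (exact permutation p = 0.00675, adjusted p = 0.189). The value of r without the 2 farthest mice was 0.0999, -0.569 and -0.931. Akt2, the isoform most tied to glucose uptake, gave r of -0.875 in CKD-Oxf (exact permutation p = 0.00734, adjusted p = 0.248; -0.752 without the 2 farthest mice) and rho of -0.964 (exact permutation p = 0.00278, adjusted p = 0.189). The r of Akt2 was -0.283 in sham-vehicle (permutation p = 0.421) and -0.690 in CKD-vehicle (exact permutation p = 0.151). Without the 2 farthest mice it was -0.0392 and -0.441. Among the rest of the 9, Insr had an unadjusted p under 0.05 in sham-vehicle (r = 0.627, permutation p = 0.0487). So did Igf1r in CKD-vehicle (0.825, exact permutation p = 0.0389) and Pik3ca in CKD-Oxf (-0.796, exact permutation p = 0.0228). Without the 2 farthest mice these were 0.191, 0.596 and 0.0679. No correlation with the clock score passed after adjustment, for these or for any other gene (0.0% in each group, with 4.09%, 12.8% and 10.4% of all genes at an unadjusted p under 0.05). As a description with no test, the clock score itself correlated with mouse number at r = 0.956 in sham-vehicle, 0.945 in CKD-vehicle and 0.574 in CKD-Oxf, so number and clock phase cannot be told apart in the vehicle groups. These are 9 relations per measure and group, over 3 measures and 3 groups, and the adjusted values cover all genes.

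**Figure D4:**
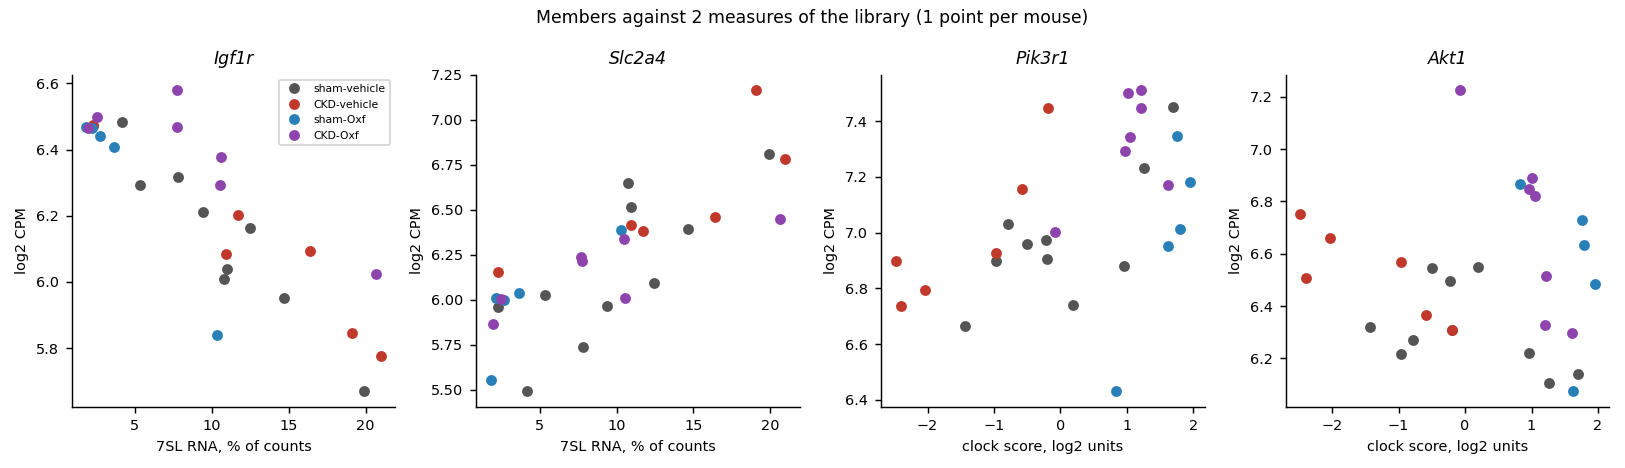
Log2 CPM of Igf1r and Slc2a4 against the 7SL share of counts in percent, and of Pik3r1 and Akt1 against the clock score in log2 units, 1 point per mouse. Within groups, Igf1r is lower and Slc2a4 higher at a larger 7SL share (r of -0.956 and 0.772 in sham-vehicle), and Pik3r1 is higher and Akt1 lower at a higher clock score.

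Among themselves, the 9 genes were compared over the 28 libraries once group means were subtracted. These Spearman correlations describe libraries that share depth and 7SL content and carry no test. Akt1, Akt2 and Slc2a4 moved together, and the other 6 formed no such block (0.765 for Akt1 with Slc2a4, 0.741 for Akt1 with Akt2, 0.687 for Akt2 with Slc2a4). Igf1r moved against them, at -0.783 with Slc2a4 and -0.467 with Akt1. Insr went with Irs1 at 0.596, and Irs2 with Igf1r at 0.434 and against Akt1 at -0.546. Without sham-Oxf replicate 1, Igf1r and Slc2a4 stood at -0.763 and Akt1 and Slc2a4 at 0.749.

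By the same measure, 8782 genes that averaged 3 log2 CPM or more were ranked by likeness to each of the 9. The top gene for Slc2a4 was Akr1b3, the aldose reductase of the polyol pathway (0.962), then the co-chaperone gene Dnaja4 (0.950). Igf1r was most like Ano6, a phospholipid scramblase and ion channel (0.946), and Map6 (0.931). Akt2 followed Eif3f, a translation initiation factor subunit (0.943), and the growth factor gene Vegfb (0.913), and Akt1 followed Rassf3 (0.928) and Zfp651 (0.920). Insr was most like the mitochondrial carrier Slc25a42 (0.905) and Fastk (0.885). Pik3r1 paired with the Golgi mannosidase Man2a1 (0.879) and the arrestin-domain gene Arrdc2 (0.845). Irs2 paired with the immediate early genes Nr4a1 (0.868) and Zfp36 (0.788). Lower values were found for Irs1, with Jmjd8 (0.826) and N4bp1 (0.822), and for Pik3ca, with the phosphatase Ppm1b (0.748) and Rab3ip (0.731).

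Other genes of the pathway, from ligands to glucose transport, were taken from a list of 60. Of these Ins1 was not analysed here, Ins2, Igfbp1 and Irs4 had too few counts to test, and 56 were tested. In Oxf against vehicle averaged over surgery, 8 of the 56 passed, or 14.3%, against 2.81% of all genes. The list was chosen with earlier results of these data known, so these shares are a description and not evidence of an excess. Of the 56, 7 were higher and 1 was lower, against 1.26% and 1.54% of all genes. The median difference was 0.03 over the 56 and 0.00 over all genes. In the other 6 group comparisons none of the 56 passed. The comparison was also run without each library in turn, and the pathway count ranged from 2 to 17, while the share of all genes called ranged from 0.449% to 13.9%.

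The 1 lower gene was Igf1, which encodes the ligand of Igf1r. Its lowest, median and highest levels were 18.0, 33.5 and 49.2 CPM in sham-vehicle, 19.4, 33.8 and 44.8 CPM in CKD-vehicle, and 6.13, 20.0 and 24.3 CPM in CKD-Oxf. The 5 sham-Oxf mice had 11.3, 24.3, 33.9, 12.4 and 16.5 CPM. The Oxf groups were mostly low, with overlap, and the difference was -0.80 ± 0.20 (edgeR adjusted p = 0.0373). The call held in 15 of the 28 fits without 1 library. Fibroblasts, a source of cardiac Igf1, had summed marker medians of 405 and 393 CPM in the vehicle groups (sham, CKD) and 275 and 269 CPM in the Oxf groups, with all 5 markers above 0 in every library. Their part in the Igf1 values was not tested.

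Of the inhibitors of the pathway, 3 rose. Pik3ip1, a transmembrane protein that binds and restrains phosphoinositide 3-kinase, had a mean of 27.1 ± 5.88 CPM (SD, n = 10) in sham-vehicle and of 23.5 ± 4.22 CPM (SD, n = 6) in CKD-vehicle, against 37.9 ± 4.47 CPM (SD, n = 5) in sham-Oxf and 35.9 ± 5.37 CPM (SD, n = 7) in CKD-Oxf. Its difference was 0.55 ± 0.10 (edgeR adjusted p = 0.00783) and was called in all 28 fits without 1 library. Phlpp1, a phosphatase that removes an activating phosphate from AKT, had means of 48.1, 47.0, 67.4 and 65.0 CPM in the same order of groups. It differed by 0.48 ± 0.10 (edgeR adjusted p = 0.0185), also called in all 28. Its relative Phlpp2 differed by 0.34 ± 0.09 (edgeR adjusted p = 0.0422), called in 12. The other 8 of the 11 inhibitors tested did not pass.

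Of the phosphoinositide 3-kinase subunits outside the 9, Pik3cd and Pik3r2 also rose. Pik3cd, the p110 delta catalytic subunit typical of leukocytes, had means of 11.7, 8.72, 19.8 and 17.8 CPM and differed by 0.90 ± 0.22 (edgeR adjusted p = 0.0341, called in 16 of 28). The summed macrophage markers had means of 79.6, 74.5, 86.4 and 80.8 CPM and medians of 80.3, 72.7, 70.7 and 70.2 CPM in the same order, with Cd68 at 0 in 1 library. They ran from 56.8 to 97.3, 62.9 to 95.9, 57.1 to 153.9 and 58.8 to 133.0 CPM, highest in sham-Oxf replicate 2 and CKD-Oxf replicate 6. The sum includes Ptprc, a marker of leukocytes in general, which reached 104.9 CPM. Adgre1, Csf1r, C1qa and Cd68 reached at most 10.4, 39.7, 25.2 and 5.02 CPM, so the highest sums are not peaks of macrophage markers alone. The part of these markers in the Pik3cd values was not tested. Pik3r2, the p85 beta regulatory subunit, differed by 0.42 ± 0.10 (edgeR adjusted p = 0.0351, called in 14). The remaining calls were Tsc1, of the complex through which AKT controls mTORC1, at 0.27 ± 0.07 (edgeR adjusted p = 0.0426, called in 13), and the intracellular glucose transporter gene Slc2a8, at 0.35 ± 0.10 (edgeR adjusted p = 0.0472, called in 9). The highest Slc2a8 value of sham-Oxf was that of replicate 1, the shallow library, at 16.4 CPM against a group median of 9.04 CPM. None of the 8 binding proteins and degradation genes, the 2 other receptors or the 5 adaptors passed.

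These calls changed with the libraries included and with the clock score as a covariate. The pathway count was 2 without any 1 of sham-vehicle replicates 4 and 7, CKD-vehicle replicates 1 to 4, sham-Oxf replicate 5, and CKD-Oxf replicates 3, 5 and 6, in fits that called 0.449% to 0.837% of all genes. It was 3 without sham-vehicle replicate 3 or 5 or CKD-Oxf replicate 1, where 1.15% to 1.24% of all genes were called, and 4 without sham-Oxf replicate 4 or CKD-Oxf replicate 2, at 0.912% and 0.941% of all genes. It was 12 without CKD-vehicle replicate 5 (7.83% of all genes) and 17 without CKD-Oxf replicate 4 (13.9%). Leaving out both libraries with the fewest genes detected gave 21, or 37.5%, against 19.1% of all genes in that fit. With the clock score as a covariate none of the 56 passed and no gene of the whole table did. The differences were then 0.13 for Pik3ip1, 0.31 for Phlpp1 and -0.45 for Igf1. With the 7SL share as a covariate, Pik3ip1 alone passed, at 0.57 (adjusted p = 0.0156). Group and clock score differ together, so they cannot be fully told apart here.

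**Figure D5:**
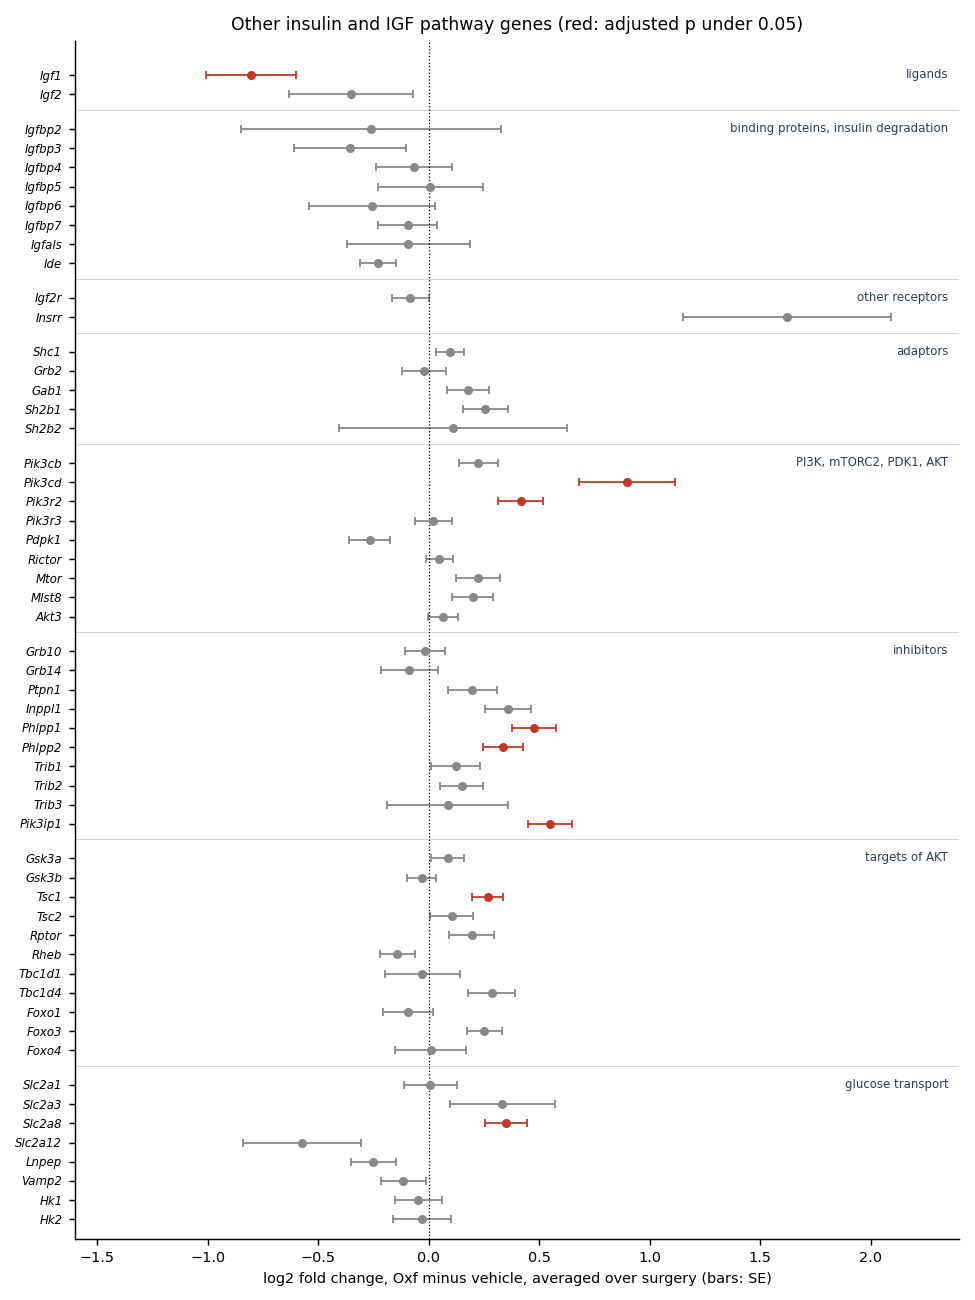
Log2 fold change (horizontal axis) of Oxf against vehicle, averaged over surgery, for other pathway genes tested, grouped by role, with bars for the standard error and red for an adjusted p under 0.05. Igf1 is the 1 red point below 0 (-0.80), and 3 of the 7 red points above 0 are inhibitors.

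Elsewhere the smallest p-value of the pathway list did not pass. It belonged to hexokinase Hk1 in CKD-vehicle against sham-vehicle (0.31 ± 0.14, edgeR adjusted p = 0.955, and 0.20 without CKD-vehicle replicate 2) and in CKD against sham averaged over gavage (0.30 ± 0.10, edgeR adjusted p = 0.325). It belonged to Pik3ip1 in CKD-Oxf against CKD-vehicle (0.61 ± 0.15, edgeR adjusted p = 0.154) and to Slc2a8 in sham-Oxf against sham-vehicle (0.58 ± 0.13, edgeR adjusted p = 0.122), where it was 0.37 without sham-Oxf replicate 1. For CKD-Oxf against sham-Oxf it was Igfals, a carrier of circulating IGF (1.12 ± 0.43, edgeR adjusted p = 0.428), and for the interaction Slc2a3 (1.19 ± 0.49, edgeR adjusted p = 1.0). Along mouse number it was Trib1 for the common slope (0.05 ± 0.02, edgeR adjusted p = 0.720) and Pik3ip1 in sham-vehicle (0.07 ± 0.02, edgeR adjusted p = 1.0). Pdpk1, the kinase that activates AKT, passed for the slope in sham-Oxf (0.13 ± 0.03, edgeR adjusted p = 0.0482), where 1.42% of all genes passed. It was measured at 15.6, 31.0, 38.1, 35.2 and 38.3 CPM in these mice, lowest in replicate 1, the shallow library. Without that library the slope was 0.04 (edgeR adjusted p = 0.999), and the call held in 4 of the 28 fits without 1 library.

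The coordinates of the 9 genes in GENCODE M21 (GRCm38) place Insr at chr8:3122061-3279617 on the minus strand and Igf1r at chr7:67952827-68233668 on the plus strand. Irs1 lies at chr1:82233101-82291416 and Irs2 at chr8:10984681-11008458, both on the minus strand. Pik3r1 is at chr13:101680563-101768217 (minus), Pik3ca at chr3:32397671-32468486 (plus), Akt1 at chr12:112653821-112674884 (minus) and Akt2 at chr7:27591552-27640826 (plus). Slc2a4 is at chr11:69942539-69948188 (minus). Genes annotated on the other strand overlap Insr (Gm16180 and Vmn2r-ps88), Irs1 (Gm9747) and Irs2 (9530052E02Rik). Whether the counting used strand is not given in the sources used here, so reads of these genes and their partners cannot be told apart. Same-strand annotations overlap Pik3r1 (Gm36638), Pik3ca (Gm37123) and Akt1 (Mir6939).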

How the data were processed

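Total RNA of ventricular myocardium from 28 mice was sequenced, and the table analysed holds raw counts per gene, deposited by the authors. Per the submitters' processing notes, STAR 2.6.1d, featureCounts 1.6.3 of the Subread package, FastQC 0.11.7, MultiQC 1.9 and build mm10 were used. Annotation, strand setting and treatment of multimapping reads are not given in the sources used here. Each column was matched to a mouse by its number, and 0 columns were left over. Groups came from the labels, replicates are separate mice numbered in record order, and p-values measure the spread between mice.

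Counts were analysed with edgeR 4.0.16 in R 4.3.3 (TMM factors, filterByExpr with a minimum count of 10, robust quasi-likelihood fit of all 28 libraries with 1 mean per group), and p-values were Benjamini-Hochberg adjusted over 24273 genes. Mouse number entered as a slope within groups. Levels are CPM with TMM factors, and log2 CPM used a prior count of 2. The 95% intervals are the log2 fold change ± its standard error times a t quantile at 24 residual degrees of freedom. Correlations used log2 CPM, with 100000 permutations for 10 mice and exact permutation otherwise. The script was tested on simulated counts. Alternatives were DESeq2 1.42.0, limma 3.58.1 voom with sample weights, RLE factors, no filter, the clock score as covariate, only the compared groups, and leaving out each mouse; the 7SL covariate and leaving out 2 libraries were chosen after seeing the data. The 9 genes, the pathway list and the marker lists were chosen with earlier results of these data known. Named beside the 9 are pathway genes with an adjusted p under 0.05 (at most 8 per comparison), the one with the smallest p where none passed, and the 2 genes most like each of the 9. The 5 motifs, and clock and marker genes given as values, stand outside that rule. A gene of the pathway list that is counted but neither named nor plotted is not reported here. Positions come from GENCODE M21 and promoters from RefSeq.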

Additional observations from a re-analysis of the deposited data

Results flagged for a closer look

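For the 9 genes and the named pathway genes, the gap between the most extreme mouse and its nearest neighbour was divided by the range of the group on the log2 CPM scale. Of 88 group ranges over 22 genes, 8 exceeded Dixon's 95% critical value, where chance gives about 1 in 20, or 4.4. Igf1r was lowest in sham-Oxf replicate 1 (ratio 0.906), at 57.2 CPM against 84.9 to 88.5 CPM in the other 4 mice. Irs1 was lowest in CKD-Oxf replicate 4 (0.749), at 18.9 CPM. These are the libraries with the fewest genes detected.

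Igfals (0.969, at 0 CPM) and Pdpk1 (0.763, at 15.6 CPM) were also lowest and Slc2a8 highest (0.71) in sham-Oxf replicate 1. Slc2a8 was highest in sham-vehicle replicate 6 (0.527), Hk1 was highest in CKD-vehicle replicate 2 (0.629), and Igf1 was lowest in CKD-Oxf replicate 5 (0.645), at 6.13 CPM.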

How the results depend on the processing

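No paired analysis was possible because replicates were numbered in record order and no label ties mice across groups.

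The number of all genes called by edgeR changed with the tool and the covariates. For CKD-vehicle against sham-vehicle it was 2, and 29 with DESeq2, 55 with voom, 1 with no filter or with only the compared groups, 0 with the clock score and 22 with the 7SL share. For CKD-Oxf against CKD-vehicle it was 8, and 190 with DESeq2, 3620 with voom, 5 with RLE factors or no filter, 0 with the clock score and 2189 without 2 libraries. For sham-Oxf against sham-vehicle it was 0, and 131 with DESeq2, 32 with voom, 2 with the clock score and 141 with the 7SL share. For CKD-Oxf against sham-Oxf it was 0, and 100 with DESeq2. For Oxf averaged it was 681, and 2133 with DESeq2, 5307 with voom, 161 with no filter, 0 with the clock score, 132 with the 7SL share and 4707 without 2 libraries. For CKD averaged it was 0, and 113 with DESeq2, 125 with voom, 1 with the clock score and 45 with the 7SL share. For the common slope it was 9, and 41 with DESeq2, 31 with voom, 17 with no filter and 0 with the clock score. For the sham-vehicle slope it was 3, and 10 with DESeq2, 11 with voom, 0 with the clock score, 6 with only that group or the 7SL share, and 7 without 2 libraries.

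Leaving out 1 mouse gave 0 to 2, 0 to 927, 0 to 20, 0 to 0, 109 to 3362, 0 to 1, 2 to 15 and 0 to 6 calls in this order, 0 to 0 for the interaction, and 0 to 0 among the 9 genes in these comparisons. For the sham-Oxf slope it gave 0.0374 to 0.132 for Pik3ca, called in 2 fits, and 0.0401 to 0.189 for Pdpk1, called in 4. The 9 genes had calls with voom (2 in CKD-Oxf against CKD-vehicle and 3 for Oxf averaged) and without 2 libraries (2 for Oxf averaged). With the clock score the sign turned for Pik3r1 in CKD-Oxf against CKD-vehicle (-0.18), for the slopes of Pik3r1 in sham-vehicle (-0.0623) and CKD-vehicle (-0.0409), for the common slope of Akt1 (0.00948) and for the sham-vehicle slope of Pik3ip1 (-0.00419). Without the 2 farthest mice, r with mouse number turned to -0.262 for Irs1 and -0.482 for Irs2 in sham-vehicle. In CKD-vehicle it turned to 0.524 for Irs2 and -0.604 for Pik3ca, and in CKD-Oxf to -0.0872 for Igf1r, 0.00235 for Irs1 and -0.921 for Pik3r1. The cause of these shifts was not tested. Of the other values of single genes, apart from fits without 1 mouse, 294 kept direction and, where it was checked, side of the threshold. A further 11 came past it and 26 no longer passed. For r with mouse number only the sign was compared.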
